A study of Mus musculus with 12 samples.

Results

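The TNF superfamily of cytokines, their receptors and the Traf adaptor proteins was followed through 36 of the 547 genes of a NanoString panel, which counts barcoded probes bound to each transcript. A gene was a member if its symbol begins with Tnf or Traf or is among 11 further names, of which 10 were on the panel: Cd27, Cd40, Cd40lg, Cradd, Fadd, Fas, Litaf, Lta, Ltb and Ltbr. The 36 genes are 12 ligands, 13 receptors, 6 Trafs, the 2 death adaptors Fadd and Cradd, the 2 TNF-induced genes Tnfaip3 and Tnfaip6, and Litaf. RNA came from 12 male mice on a C57BL6-NJ background, 3 in each of 4 groups: SphK2 knockout (KO) and wild-type (WT) mice given a Western diet with sugar water, and KO and WT mice given a control diet with normal water. SphK2 is sphingosine kinase 2, which makes the lipid mediator sphingosine 1-phosphate. Feeding began at 12 to 18 weeks of age and lasted 16 weeks by the labels' protocol, whereas the label for diet duration differs for each mouse, from 16 to 27 weeks. Labelled ages were 217 to 252 days in KO and 226 to 232 days in WT mice on the Western diet, and 250 to 259 days in KO and 231 to 232 days in WT mice on the control diet. All labelled ages of KO mice on the control diet, and the highest on the Western diet, lie past the latest end of the protocol's schedule. The sources used here do not give how the knockout was made or whether it spans all cells, and no Sphk2 probe was analysed, so it could not be checked in the RNA. The series title names the liver and a model of early metabolic dysfunction-associated steatohepatitis, a fatty liver with inflammation. All 11 measured hepatocyte markers were abundant, with no value under 728 normalized counts.

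TNF family ligands are made mostly by immune cells and bind receptors on neighbouring cells. Some receptors, such as Fas, carry a death domain that recruits Fadd and starts caspase cleavage. Others, such as the lymphotoxin beta receptor, CD40 and TNF receptor 2, bind Traf proteins, which switch on the kinases that release NF-kB. NF-kB in turn raises its own inhibitors, among them Tnfaip3 (A20), a ubiquitin-editing enzyme that closes the loop. In the liver these signals bear on hepatocyte survival, on regeneration and on the recruitment of leukocytes.

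Promoter sequences are shown for 3 of the members described below: Tnfaip3 and Ltb, which were among those higher on the Western diet in KO mice, and Ltbr, whose diet difference had opposite signs in the 2 genotypes. The windows are the 250 bases before the gene's start in RefSeq (GRCm38.p6), read 5′ to 3′ on the gene's strand, and capitals mark a match to the kappaB consensus, the motif that NF-kB binds. The Tnfaip3 window lies at chr10:19015411-19015660 (minus strand), the Ltb window at chr17:35194257-35194506 (plus strand) and the Ltbr window at chr6:125313886-125314135 (minus strand).
Tnfaip3: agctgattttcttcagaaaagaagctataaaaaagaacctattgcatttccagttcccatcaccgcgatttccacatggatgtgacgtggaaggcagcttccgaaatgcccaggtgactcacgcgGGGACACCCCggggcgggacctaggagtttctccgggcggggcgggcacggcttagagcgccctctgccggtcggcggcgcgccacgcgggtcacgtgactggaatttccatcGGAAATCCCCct
Ltb: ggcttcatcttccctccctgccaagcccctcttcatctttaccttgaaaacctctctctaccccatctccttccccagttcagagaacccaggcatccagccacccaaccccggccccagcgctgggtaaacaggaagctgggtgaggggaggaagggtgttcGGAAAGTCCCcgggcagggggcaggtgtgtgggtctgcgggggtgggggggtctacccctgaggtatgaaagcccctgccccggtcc
Ltbr: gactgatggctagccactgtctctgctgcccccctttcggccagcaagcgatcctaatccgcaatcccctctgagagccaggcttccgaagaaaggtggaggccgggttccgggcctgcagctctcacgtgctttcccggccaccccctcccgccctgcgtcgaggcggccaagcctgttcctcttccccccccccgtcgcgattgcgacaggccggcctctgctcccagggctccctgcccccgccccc
The Tnfaip3 window held 2 matches, starting at -125 and -12 from the gene's start, and the Ltb window held 1, at -87. The Ltbr window held none, nor did the window of a second annotated start of Tnfaip3. No match was found either for the other called members with a window. These were Tnfsf10, also higher on the Western diet in KO mice, Tnfrsf1b, Tnfrsf14 and Litaf. A window was found for 33 of the 36 members (not for Cd40, Cd40lg and Tnfsf12). Searched on both strands, with overlapping matches allowed, the consensus was present in 5 of the members' 36 windows, those of Tnfaip3, Ltb, Traf3, Tnfrsf8 and Tnfrsf9, against 2382 of 32851 windows in all (7.25%). A match of letters shows no binding, and no binding was measured here.

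The panel's values were normalized counts, which are whole counts times 1 factor per library set by the authors. Recovered counts totalled 440842 to 643638 per library. Of the members 30 (83.3%) averaged at least 20 normalized counts over the 12 libraries and were tested, as were 453 of all 547 genes (82.8%). The 6 below that level were the ligands Tnfsf11, Tnfsf13b and Tnfsf18 and the receptors Tnfrsf9, Tnfrsf13c and Tnfrsf17, with means of 9.32 to 18.1. Of the tested members, 12 averaged under 40 normalized counts, where counting error weighs most. Tnfrsf1a, which encodes the other TNF receptor, was not analysed here. Differences are on the scale of log2(normalized count + 1), from limma fitted to all 12 libraries, with p-values adjusted by Benjamini-Hochberg over the 453 genes and a threshold of 0.05. The p-values measure the spread between single mice.

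Libraries differed beyond their labels. On the first principal component of the tested genes the 3 KO Western-diet libraries lay at 10.3, 11.6 and 10.4, while WT Western-diet replicate 2 (-5.59) lay among the control-diet libraries, and on the second component KO control-diet replicate 2 was the outermost (-9.00). The median normalized count of all panel genes was 93.4 to 97.9 in KO and 51.0 to 76.5 in WT libraries on the Western diet, and 49.4 to 60.3 in KO and 51.5 to 54.2 in WT libraries on the control diet. The median log2 difference of all tested genes was 0.26 between KO and WT on the Western diet and 0.27 between the diets in KO mice. After recentring every library by its median ratio to the others these medians were 0.01 and 0.0027, and recentred on its own median -0.30 and -0.46. Calls below are under the authors' scaling, with the other scalings beside them for the members called and for the gene lists. The balance of calls over all genes turned with the scaling. Between KO and WT on the Western diet 146 genes were higher and 15 lower under the authors' scaling, 69 and 43 by median ratio, 42 and 53 by quantile normalization and 25 and 127 by sample median. Between diets in KO mice the counts were 169 and 36, 108 and 93, 82 and 108, and 55 and 224 in the same order. A series-wide table that was also deposited holds the workbook's values under another animal in all 12 columns. Each column holds the workbook's values of the animal before it in deposited order, and the first those of the last. Its KO Western-diet columns thus hold the workbook's KO control-diet replicates 2 and 3 and KO Western-diet replicate 1. The workbook, whose headers name each animal's genotype and diet, was used throughout, but nothing in the sources settles which of the 2 pairs values and animals correctly. With the series-wide table no member was called by limma in any of the 5 comparisons, and the count over all genes is not given for it.

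On the Western diet, 4 of the 30 tested members differed between KO and WT mice. Tnfrsf1b, Tnfrsf14 and Litaf were higher in KO mice and Ltbr was lower. That is 13.3% of the members, against 35.5% of all tested genes called in this comparison (32.2% higher, 3.31% lower). Between KO and WT mice on the control diet 1 member was called, Litaf, which was higher (3.33% of members, against 2.87% of all genes and 1.99% called higher). The Western diet was accompanied by higher Tnfsf10, Ltb, Tnfaip3, Cd40 and Tnfsf12 in KO mice, 16.7% of members against 45.3% of all genes (37.3% higher), and by higher Ltbr and Tnfaip3 in WT mice, 6.67% against 8.61% (4.86% higher). The interaction, the diet difference in KO minus that in WT mice, was called for Ltbr (3.33% of members, against 1.32% of all genes). Ltbr was itself the only 1 of the 453 tested genes called below 0 (0.221%). The direction of the members' calls also turned with the scaling. On the Western diet 3 were higher and 1 lower in KO than in WT mice under the authors' scaling, against 1 and 3 by median ratio, 0 and 9 by quantile normalization and 0 and 11 by sample median. Between diets in KO mice 5 were higher and 0 lower, against 1 and 5, 0 and 10, and 0 and 18 in that order.

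At an unadjusted p under 0.05 there were 8 members between KO and WT on the Western diet (45.9% of all genes), 7 on the control diet (17%), 11 between diets in KO mice (53.4%), 8 between diets in WT mice (25.2%) and 4 for the interaction (31.3%). The median member differed by 0.14 between KO and WT on the Western diet and by 0.18 on the control diet, beside 0.26 and 0.074 for all tested genes, and by 0.16 between diets in KO and 0.15 in WT mice, beside 0.27 and 0.089. The 3 mice of each group did not overlap for 7 members between KO and WT on the Western diet (49.9% of all genes), for 9 on the control diet (23.8%), for 9 between diets in KO mice (57.6%) and for 7 between diets in WT mice (28%).

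**Figure D1:**
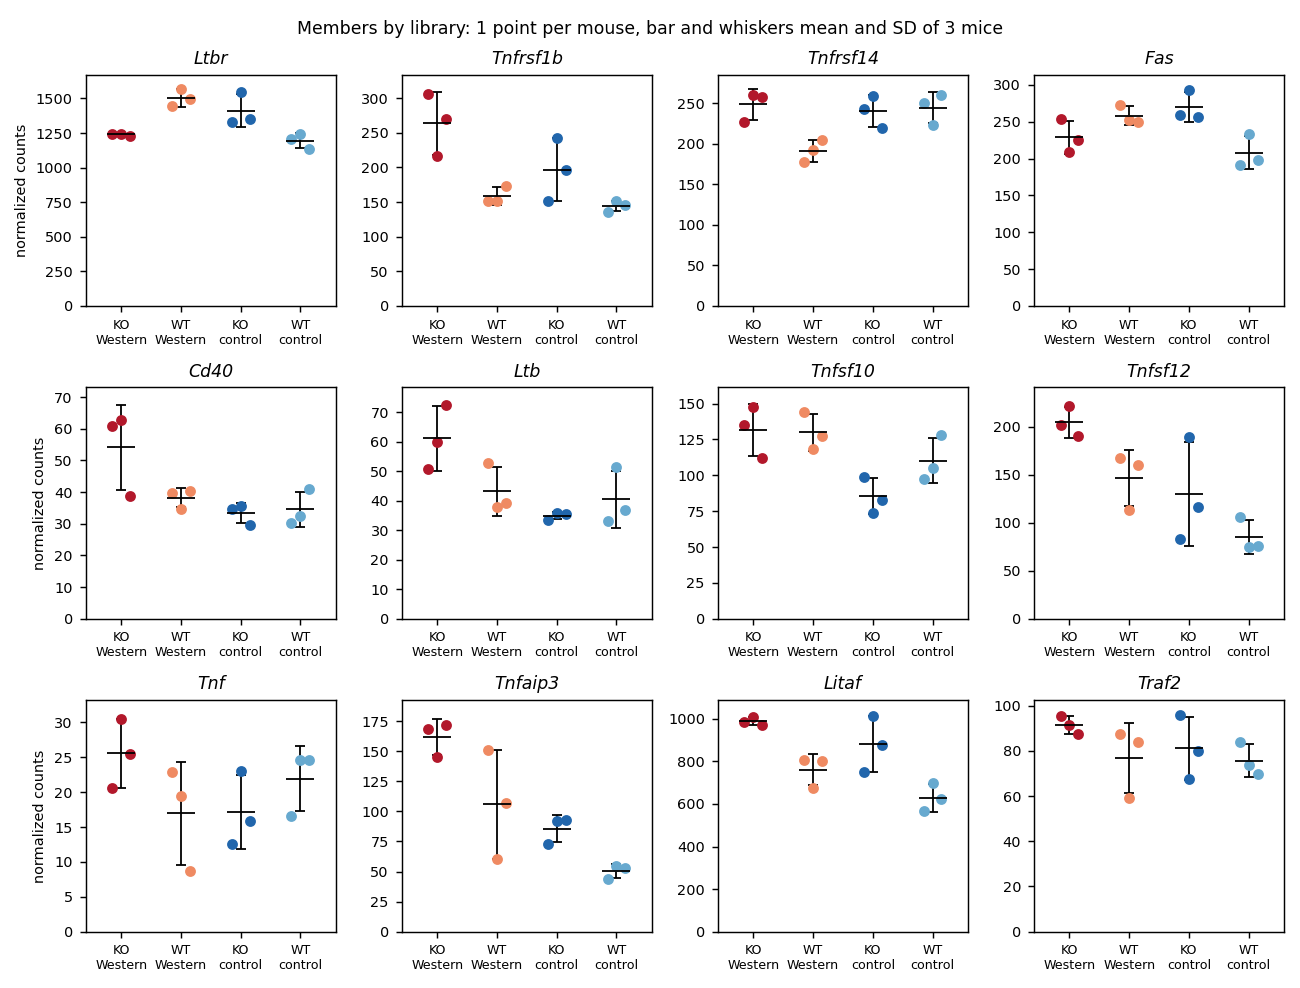
Normalized counts (vertical axes from 0) of 12 members in each of 12 mice, 1 point per mouse, with the mean and SD of 3 mice per group. The 3 KO Western-diet mice sit below all WT Western-diet mice for Ltbr and above them for Tnfrsf1b, Tnfrsf14 and Litaf.

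Ltbr encodes the lymphotoxin beta receptor, which binds lymphotoxin and LIGHT and feeds the alternative NF-kB route. On the Western diet it stood at 1247, 1245 and 1231 normalized counts in the KO mice, against 1442, 1572 and 1495 in the WT mice. The KO mice were nearly alike, and all lay below the WT mice. The order was the other way round on the control diet, with 1332, 1549.9 and 1350.4 in the KO mice, against 1207, 1244 and 1136 in the WT mice, again without overlap. The log2 difference between KO and WT was -0.28 (SE 0.075, adjusted p = 0.0166) on the Western diet and 0.24 (SE 0.075, adjusted p = 0.124) on the control diet. Read by diet, Western minus control was -0.18 (SE 0.075, adjusted p = 0.0671) in KO mice and 0.33 (SE 0.075, adjusted p = 0.0243) in WT mice, and the test of the difference between these gave -0.51 (SE 0.11, adjusted p = 0.0414). In bulk RNA, fewer cells of a type and less RNA per cell cannot be told apart.

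The lower Ltbr of KO mice on the Western diet was called under all 4 scalings. It was -0.53 recentred on the median ratio, -0.45 after quantile normalization and -0.84 recentred on the sample median, and its adjusted p by limma ran from 0.000729 to 0.853 over the alternatives that left out no single library, the highest from the series-wide table. Without KO Western-diet replicate 2 the difference was -0.28 (adjusted p = 0.0519), and without WT Western-diet replicate 2 it was -0.24 (adjusted p = 0.0588). The lower Ltbr of KO mice on the Western than on the control diet was not called under the authors' scaling and was called under the 3 others (-0.45, -0.28 and -0.91 in the same order). The higher Ltbr of WT mice on the Western diet was called after quantile normalization (0.42), not when recentred on the median ratio (0.26) or the sample median (0.051). That call ended without WT control-diet replicate 1 or 3 or WT Western-diet replicate 3 (adjusted p = 0.0771, 0.0965 and 0.0802). The interaction for Ltbr was called under all 4 scalings, from -0.51 to -0.96, and in 3 of 12 fits that left out 1 library. In the other 9 it was -0.44 to -0.54 with adjusted p-values of 0.062 to 0.108.

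Fas encodes the death receptor for Fas ligand, which hepatocytes carry. In Western-diet mice it had 253, 209 and 225 normalized counts in KO mice, against 273, 252 and 249 in WT mice, and the groups overlapped. In control-diet mice it had 259, 294 and 257 in KO mice, against 192, 234 and 198 in WT mice, without overlap. Its pattern had the same form as that of Ltbr: Western minus control was -0.24 (SE 0.11, adjusted p = 0.0998) in KO mice and 0.31 (SE 0.11, adjusted p = 0.108) in WT mice. The interaction was -0.55 (SE 0.16, adjusted p = 0.0603) by limma, past the threshold in none of the 5 comparisons under the authors' scaling. Under the 3 other scalings the interaction of Fas was called, at -0.75 recentred on the median ratio, -0.95 after quantile normalization and -1.0 recentred on the sample median. Across the other alternatives that keep all 12 mice its adjusted p was 0.0429 to 0.781, and it passed without WT Western-diet replicate 1 (adjusted p = 0.0467) or KO control-diet replicate 1 (adjusted p = 0.0493). With these 3 scalings Fas was also called lower in KO than in WT mice on the Western diet (-0.43, -0.65 and -0.74 in the same order) and lower on the Western than on the control diet in KO mice (-0.50, -0.76 and -0.97).

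Tnfrsf1b encodes TNF receptor 2, which binds Traf2 and is carried mainly by leukocytes and endothelium. With the Western diet it stood at 307, 216 and 269.5 normalized counts in the KO mice, against 151, 151 and 173 in the WT mice. Every KO mouse lay above every WT mouse, and the log2 difference was 0.72 (SE 0.17, adjusted p = 0.0102). With the control diet the KO mice had 151, 243 and 197 and the WT mice 136, 151 and 145, a difference of 0.42 (SE 0.17, adjusted p = 0.233). The KO mice were the more spread, by an SD of 45.6 against 7.46 in WT mice. The diet difference was 0.43 in KO mice (adjusted p = 0.0552) and 0.13 in WT mice (adjusted p = 0.686), and the interaction was 0.30 (adjusted p = 0.415). The call on the Western diet held in all 12 fits that left out 1 library and with median-ratio recentring (0.47, adjusted p = 0.0407), not after quantile normalization (0.26) or sample-median recentring (0.16).

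Tnfrsf14 encodes HVEM, a receptor for LIGHT and a ligand of the inhibitory receptor BTLA. It was 227, 261 and 258 in KO mice, against 177, 192 and 205 in WT mice on the Western diet. On the control diet it was 243, 259 and 219 in KO mice, against 250.2, 223 and 259.8 in WT mice. The WT mice on the Western diet were thus the group that lay apart, below both control-diet groups. The log2 difference between KO and WT was 0.38 (SE 0.11, adjusted p = 0.019) on the Western diet and -0.023 on the control diet (adjusted p = 0.949), and Western minus control in WT mice was -0.35 (SE 0.11, adjusted p = 0.0675). The interaction of 0.40 did not pass (adjusted p = 0.109). The call ended without KO Western-diet replicate 2 or 3 (0.34 and 0.35, adjusted p = 0.0697 and 0.0644) and under each other scaling, where the difference was 0.12 by median ratio, -0.12 by quantile normalization and -0.19 by sample median.

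Cd40, the receptor through which T cells license antigen-presenting cells, stood at 61.0, 62.8 and 38.6 in KO mice on the Western diet, against 34.7, 35.7 and 29.6 in KO mice on the control diet. All 3 Western-diet values were the higher ones, with replicate 3 close to the control range, and the log2 difference was 0.65 (SE 0.21, adjusted p = 0.022). In WT mice Cd40 was 39.8, 34.7 and 40.3 on the Western and 30.2, 32.5 and 40.9 on the control diet, a difference of 0.15 (adjusted p = 0.695). The interaction was not called (0.50, adjusted p = 0.257). The KO diet call for Cd40 was lost without KO Western-diet replicate 1 or 2 or KO control-diet replicate 3 (0.55, 0.53 and 0.57, adjusted p = 0.0859, 0.0926 and 0.0805), and under each other scaling, where the difference ran from -0.061 to 0.39. Cd40lg, its ligand on T cells, lay between 26.1 and 41.6 in all 12 mice and was called in no comparison under the authors' scaling.

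The other 5 tested receptors were called in none of the 5 comparisons under the authors' scaling. Tnfrsf11a, or RANK, was picked out after its values were seen. It had 86.8, 133 and 115 normalized counts in KO mice and 105, 70.4 and 77.3 in WT mice on the Western diet, against 71.5, 74.1 and 83.0 in KO mice and 66.2, 50.4 and 68.5 in WT mice on the control diet. Western and control values did not overlap in either genotype, and the diet difference was 0.53 in KO mice (adjusted p = 0.0512) and 0.44 in WT mice (adjusted p = 0.201). Cd27, Tnfrsf13b (TACI), Tnfrsf4 (OX40) and Tnfrsf8 (CD30), which act on lymphocytes, stayed between 12.3 and 41.6 normalized counts in every mouse. With sample-median recentring Tnfrsf13b was called lower in KO than in WT mice on the Western diet, and Cd27 and Tnfrsf8 lower by diet in KO mice.

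**Figure D2:**
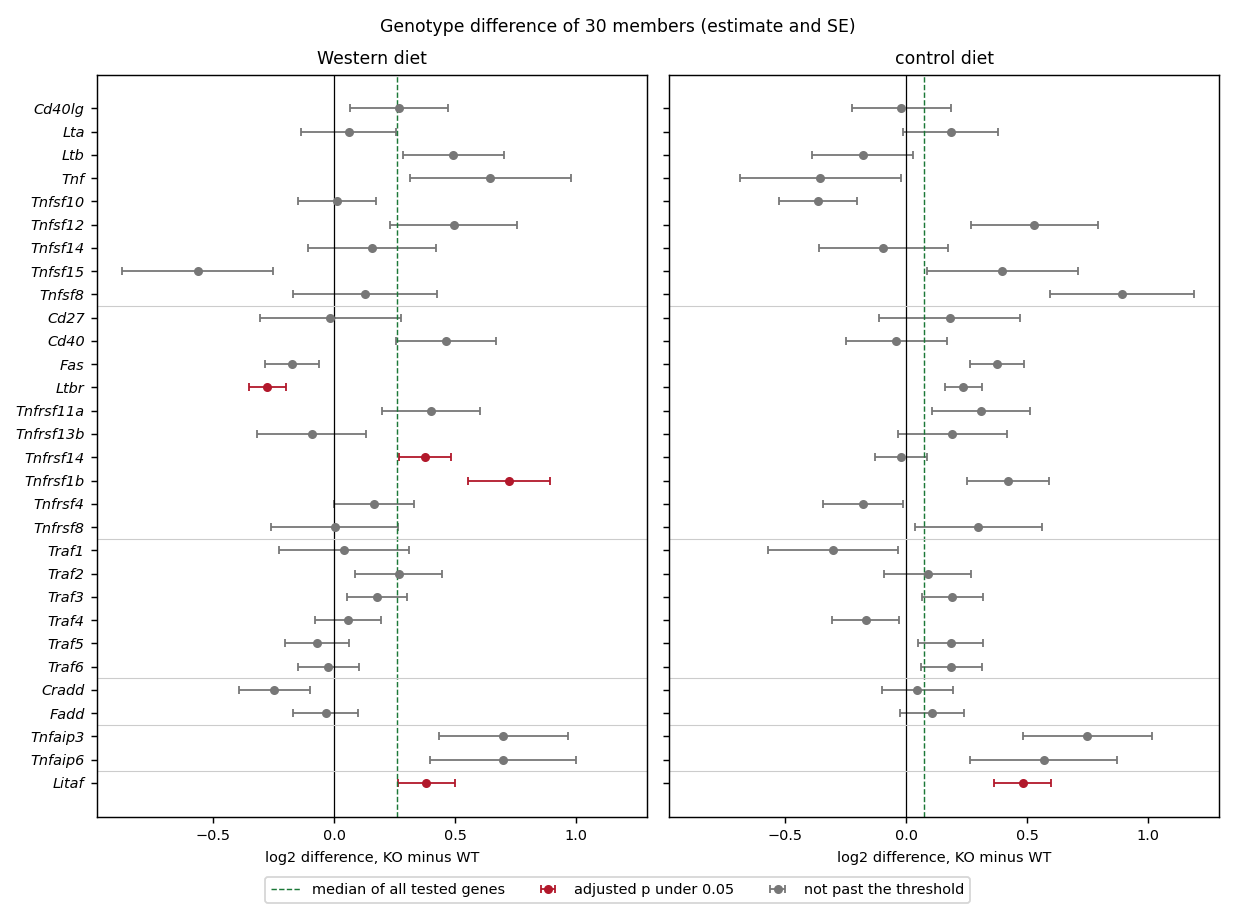
Log2 difference KO minus WT (horizontal axis) of the 30 tested members on the Western diet (left) and the control diet (right), ordered by role, with the estimate and its SE. The dashed line is the median of all 453 tested genes (0.26 and 0.074), and the called members are Ltbr, Tnfrsf14, Tnfrsf1b and Litaf on the left and Litaf on the right.

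None of the 9 tested ligands was called by limma between KO and WT mice on either diet under the authors' scaling. At an unadjusted p under 0.05 there was 1 on the Western diet, Ltb, and 2 on the control diet, Tnfsf8 and Tnfsf10. Their median log2 difference was 0.16 on the Western diet and -0.019 on the control diet. Tnf itself, the prototype of the family, was low, at 20.6, 30.5 and 25.5 normalized counts in KO mice, against 22.9, 19.4 and 8.71 in WT mice on the Western diet. Under the control diet it was 12.6, 23.0 and 15.8 in KO mice, against 16.5, 24.6 and 24.5 in WT mice. The 4 groups overlapped, and the genotype difference was 0.64 (SE 0.33, adjusted p = 0.152) on the Western and -0.36 (SE 0.33, adjusted p = 0.676) on the control diet.

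Ltb, Tnf and Lta lie next to each other on chromosome 17, in that order among the protein-coding genes of the RefSeq table. Ltb encodes the membrane anchor of the lymphotoxin that binds Ltbr. In KO mice it was 50.7, 60.1 and 72.6 on the Western diet, against 33.6, 35.7 and 35.6 on the control diet, with a clear gap and a log2 difference of 0.77 (SE 0.21, adjusted p = 0.0102). In WT mice it was 52.7, 37.7 and 39.2 on the Western diet, against 33.1, 51.5 and 36.8 on the control diet, and these overlapped (0.10, adjusted p = 0.793). The interaction was 0.67 (adjusted p = 0.148). Its neighbours were not called by diet in KO mice under the authors' scaling: the difference was 0.57 for Tnf and 0.12 for Lta (adjusted p = 0.183 and 0.65). The Ltb call held in all 12 fits without 1 library, and missed the threshold with median-ratio recentring (0.51, adjusted p = 0.0556), quantile normalization (0.30) and sample-median recentring (0.056).

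Tnfsf10 encodes TRAIL, which triggers death receptors. It was 135, 148 and 112 in KO mice on the Western diet, against 98.8, 74.1 and 83.0 in KO mice on the control diet. The groups did not overlap, and the difference was 0.62 (SE 0.16, adjusted p = 0.00841). WT mice had 144, 118 and 127 on the Western and 97.3, 105 and 128 on the control diet, and on the control diet the KO mice reached lower values than the WT mice, with overlap. The difference in WT mice was 0.24 (adjusted p = 0.397), and the interaction 0.38 did not pass (adjusted p = 0.269). The KO call held without any 1 library. It was 0.36 by median ratio (adjusted p = 0.0924), -0.061 by quantile normalization and -0.11 by sample median.

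Tnfsf12 encodes TWEAK, whose receptor acts in liver progenitor growth. In KO mice it was 202, 222 and 190.0 on the Western diet, against 83.1, 189 and 117 on the control diet, where replicate 2, outermost on the second component, lay just below the lowest Western-diet value. The log2 difference was 0.73 (SE 0.26, adjusted p = 0.0377). In WT mice it was 167, 113 and 160.0 on the Western diet, against 106, 75.0 and 75.7 on the control diet, a difference of like size that did not pass, at 0.77 (SE 0.26, adjusted p = 0.0944). Without KO control-diet replicate 2 the KO difference was 1.04 (adjusted p = 0.00355). It missed the threshold without any 1 of the other 5 KO libraries, at 0.46 to 0.79 (adjusted p = 0.0671 to 0.142), and under each other scaling (0.0055 to 0.47).

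Of the remaining ligands, Lta, Cd40lg, Tnfsf14 (LIGHT), Tnfsf15 (TL1A) and Tnfsf8 (CD30 ligand), none was called under the authors' scaling. Tnfsf8 and Tnfsf15, neighbours on chromosome 4, were picked out after their values were seen. Tnfsf8 was 30.9, 26.8 and 30.9 in KO mice on the Western diet, against 31.5, 75.3 and 46.4 in KO mice on the control diet, where replicate 2 was again the extreme, with a difference of -0.69 (SE 0.30, adjusted p = 0.0792). Tnfsf15 was 14.6, 16.6 and 12.4 in KO mice, against 17.9, 20.4 and 28.3 in WT mice on the Western diet, without overlap, at -0.56 (SE 0.31, adjusted p = 0.181). On the control diet the KO mice had 27.3, 15.3 and 34.6 and the WT mice 23.4, 21.3 and 12.3, with overlap and the opposite sign (0.40, adjusted p = 0.581). The diet difference of Tnfsf15 in KO mice was -0.72 (adjusted p = 0.078) and its interaction -0.96 (adjusted p = 0.157), neither past the threshold. By diet in KO mice, Tnfsf8 was called lower under the 3 other scalings and Tnfsf15 by median ratio and sample median. Lta and Cd40lg were called lower there by sample median only. Tnfsf15 was also called lower in KO than in WT mice on the Western diet by sample median.

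**Figure D3:**
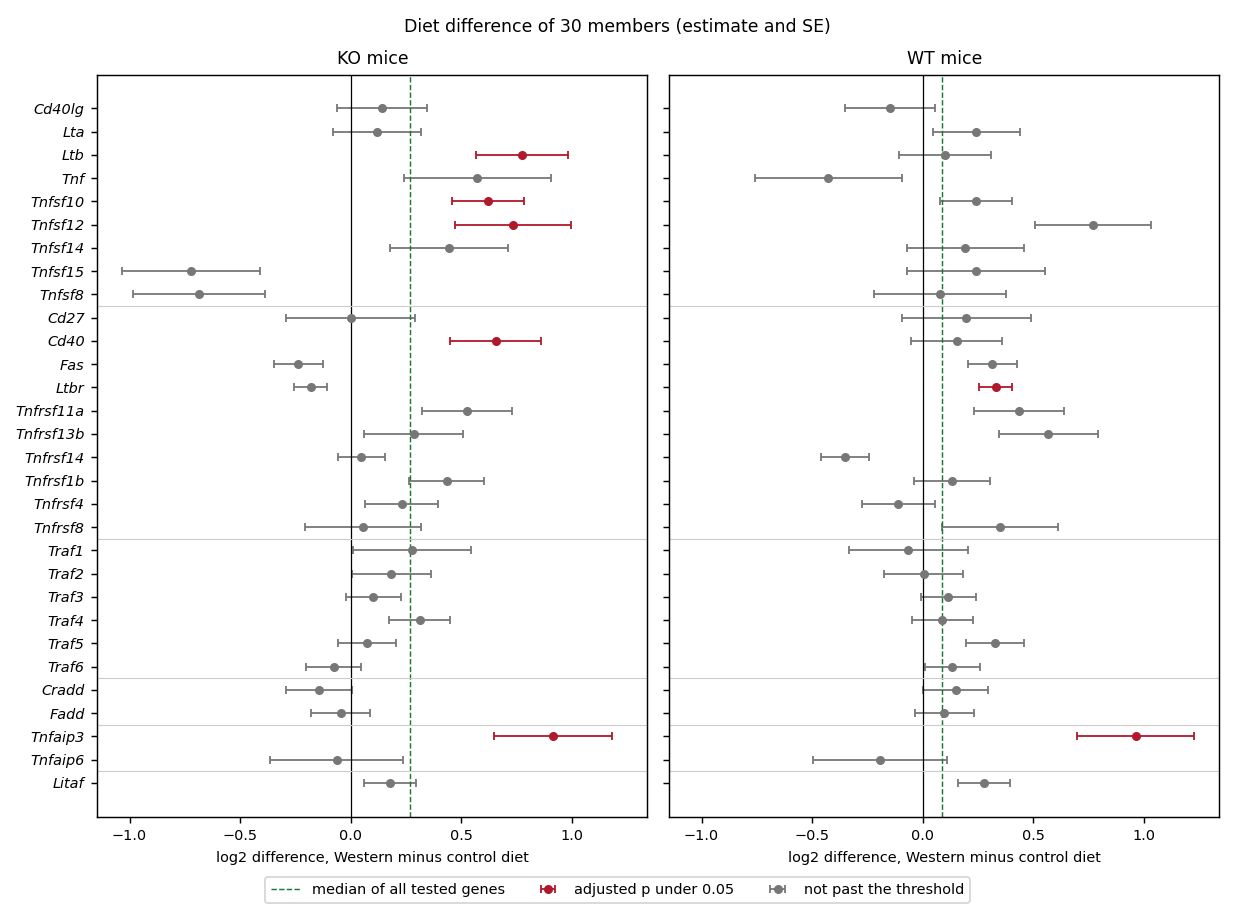
Log2 difference Western minus control diet (horizontal axis) of the 30 tested members in KO mice (left) and WT mice (right), ordered by role, with the estimate and its SE. The dashed line is the median of all 453 tested genes (0.27 and 0.089). Ltb, Tnfsf10, Tnfsf12, Cd40 and Tnfaip3 were called in KO mice, Ltbr and Tnfaip3 in WT mice.

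The Traf genes encode the adaptors that join these receptors, and Toll and interleukin 1 receptors in the case of Traf6, to NF-kB and the stress kinases. None of the 6 was called by limma in any of the 5 comparisons under the authors' scaling, and at an unadjusted p under 0.05 there was 1 by diet in KO mice (Traf4) and 1 by diet in WT mice (Traf5). Their log2 differences ran from -0.070 to 0.27 between KO and WT on the Western diet and from -0.30 to 0.19 on the control diet. By diet they ran from -0.077 to 0.31 in KO mice and from -0.065 to 0.33 in WT mice. Traf2, the adaptor of TNF receptor 2, had 95.4, 91.5 and 87.3 normalized counts in KO mice, against 87.5, 59.2 and 83.8 in WT mice on the Western diet, a difference of 0.27 (SE 0.18, adjusted p = 0.274). The KO mice were tightly grouped, and WT replicate 2, which lay among control-diet mice on the first component, was the low value. Traf2 on the control diet was 95.7, 67.7 and 80.0 in KO mice, against 83.7, 73.9 and 69.6 in WT mice. The Traf result depended on the scaling: on the Western diet Traf3, Traf4, Traf5 and Traf6 were called lower in KO mice after quantile normalization and sample-median recentring, and none with median-ratio recentring. By diet in KO mice Traf6 was called lower with median-ratio recentring, Traf2, Traf3, Traf5 and Traf6 with quantile normalization, and Traf2, Traf3, Traf4, Traf5 and Traf6 with sample-median recentring. The death adaptors Fadd and Cradd, which link death receptors to caspases, were not called either under the authors' scaling. Fadd lay between 90.4 and 119.8 in all 12 mice, and was called lower in KO than in WT mice on the Western diet and lower by diet in KO mice after quantile normalization and sample-median recentring. Cradd was 197, 238 and 181 in KO mice, against 243, 262 and 223 in WT mice on the Western diet (-0.25 (SE 0.15, adjusted p = 0.219)), and was called lower under the 3 other scalings.

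Tnfaip3 had the largest diet difference among the tested members in both genotypes under the authors' scaling. In KO mice it was 168, 145 and 172 normalized counts on the Western diet, against 72.6, 91.9 and 92.9 on the control diet, and in WT mice 151, 60.2 and 107 on the Western diet, against 43.8, 54.8 and 53.2 on the control diet. Neither pair overlapped, although the WT Western-diet mice were widely spread. The diet difference was 0.91 (SE 0.27, adjusted p = 0.0149) in KO mice and 0.96 (SE 0.27, adjusted p = 0.0452) in WT mice, and the interaction was -0.048 with an SE of 0.38 (adjusted p = 0.956). Between KO and WT it was 0.70 (SE 0.27, adjusted p = 0.0591) on the Western and 0.75 (SE 0.27, adjusted p = 0.167) on the control diet, the second without overlap. The KO call held in all 12 fits that left out 1 library and by median ratio (0.65), not by quantile normalization (0.21) or sample median (0.19). The WT call held under all 4 scalings (0.69 to 0.96). It passed in only 2 of the 12 fits that left out a library: without WT Western-diet replicate 2, at 1.32 (adjusted p = 0.00107), and without KO control-diet replicate 1 (adjusted p = 0.0454). In the other 10 the adjusted p was 0.0504 to 0.163.

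Tnfaip6 (TSG-6), a hyaluronan-binding protein induced by TNF, was picked out after its values were seen. It had 24.9, 24.0 and 30.1 normalized counts in KO mice, against 22.9, 8.16 and 20.7 in WT mice on the Western diet, and 25.2, 31.9 and 25.7 in KO mice, against 18.5, 16.8 and 19.4 in WT mice on the control diet. KO mice lay above WT mice on both diets, with differences of 0.70 (SE 0.30, adjusted p = 0.0922) and 0.57 (SE 0.30, adjusted p = 0.373), neither of them past the threshold.

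Litaf encodes a lysosomal membrane protein named for its induction by lipopolysaccharide and its link to Tnf transcription. On the Western diet it stood at 985, 1009 and 970.0 in KO mice, against 804, 676 and 802 in WT mice, and on the control diet at 752, 1012 and 877 in KO mice, against 566, 698 and 621 in WT mice. KO mice lay above WT mice on both diets, and the log2 difference was 0.38 (SE 0.12, adjusted p = 0.0244) on the Western and 0.48 (SE 0.12, adjusted p = 0.0495) on the control diet. The diet difference was 0.18 in KO and 0.28 in WT mice, neither called. The Western-diet call was lost without any 1 KO Western-diet library or WT Western-diet replicate 2 (0.30 to 0.39, adjusted p = 0.0572 to 0.104), and the difference was 0.13, 0.23 and -0.19 by median ratio, quantile normalization and sample median. The control-diet difference was 0.42, 0.45 and 0.37 in that order, called in the first and second of these. That call was lost in 10 of 12 fits without 1 library, Western-diet libraries included (0.38 to 0.56, adjusted p = 0.0516 to 0.188).

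**Figure D4:**
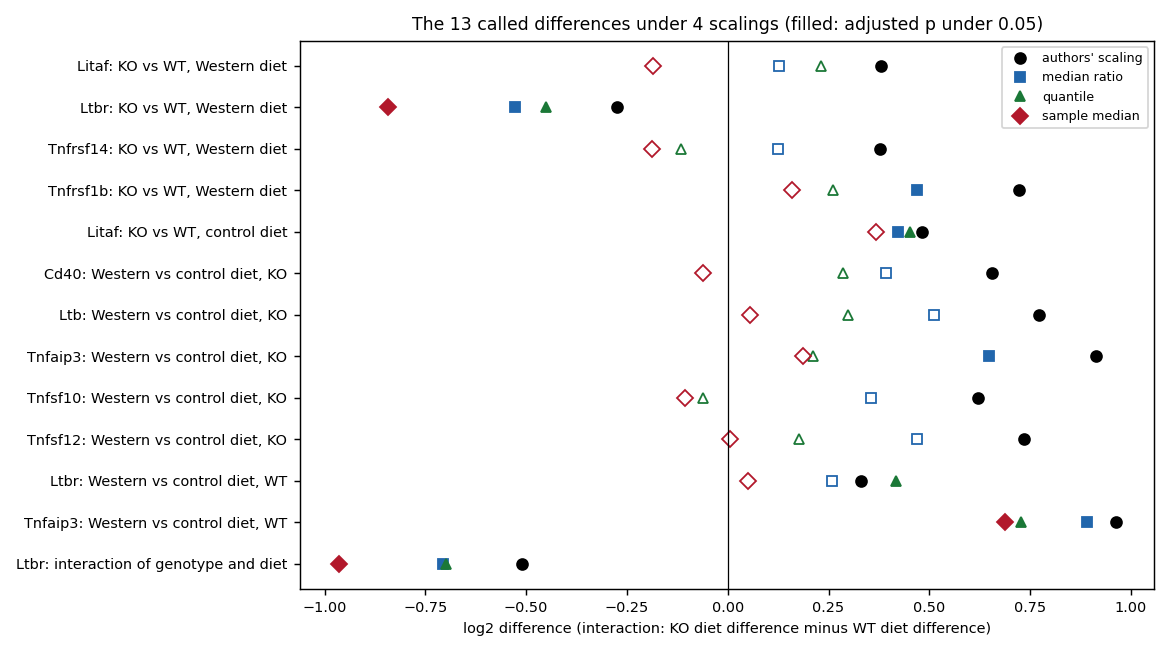
Log2 difference (horizontal axis) of the 13 called member differences under 4 scalings of the libraries, filled where the adjusted p was under 0.05. Ltbr on the Western diet, its interaction and Tnfaip3 in WT mice are filled under all 4. Litaf and Tnfrsf14 on the Western diet and Cd40 and Tnfsf10 in KO mice lie on both sides of 0.

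Age moved with the groups. With age in days as a covariate, Ltb was the only 1 of the 5 KO diet calls to pass (0.98, adjusted p = 0.0463). Tnfaip3, Tnfsf12, Tnfsf10 and Cd40 were then at 0.99, 0.55, 0.44 and 0.26 (adjusted p = 0.112, 0.324, 0.207 and 0.523). The Western-diet genotype calls for Tnfrsf1b, Ltbr, Tnfrsf14 and Litaf all passed with age included. The Litaf call on the control diet, both WT diet calls and the Ltbr interaction did not (adjusted p = 0.289 for Litaf, 0.0506 for Ltbr and 0.0751 for Tnfaip3 by diet in WT mice, 0.223 for the interaction). Sample numbers in the workbook's column names run from 1 to 8 for 2 mice of each group and from 17 to 20 for the third. With that split as a block, an alternative added after seeing the data, the calls for Litaf on the control diet, Tnfsf12 in KO mice, Tnfaip3 in WT mice and the Ltbr interaction were lost (adjusted p = 0.0876, 0.0505, 0.064 and 0.0753).

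Genes that act below these receptors were read from lists of the pathway, whose counts stand beside 32.2% of all tested genes higher in KO than in WT mice on the Western diet and 37.3% higher on the Western diet in KO mice. Under the Western diet, 5 of 12 NF-kB subunits and inhibitors were higher in KO than in WT mice and 1 was lower. Rela, the main activating subunit, differed by 0.36, Nfkb2, the subunit of the alternative route below Ltbr, by 0.88, and the atypical inhibitors Nfkbiz and Bcl3 by 0.51 and 0.52 (adjusted p of limma = 0.00606, 0.00713, 0.0139 and 0.0147). Of 16 tested genes known to be induced by TNF and NF-kB, 9 were higher and none lower, with a median of 0.71 against 0.26 for all tested genes. Among them were the adhesion molecule Vcam1 (0.92), the cytokines Il1b (0.79) and Csf1 (0.66) and the neutrophil chemokine Cxcl1 (0.63). Of the kinases 2 of 4 were higher, Map4k4 (0.74) and Mapkapk2 (0.33). In the Toll and interleukin 1 branch, which shares Traf6, 3 of 10 were higher and 2 lower, with Tlr2 at 1.26, Irak3 at 0.78, Tlr4 at 0.68 and the co-receptor Il1rap at -0.49. These counts depended on the scaling. By median ratio, quantile normalization and sample median, the NF-kB list had 2, 1 and 0 genes higher and 2, 3 and 5 lower, and the inducible genes 4, 2 and 1 higher and none lower. The kinases had none higher and 1, 2 and 1 lower, and the Toll branch 2, 1 and 1 higher and 3 lower under each. Of the genes named here, Tlr2 and Il1rap were called in the same direction under all 4 scalings.

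Between KO and WT mice on the control diet none of the tested genes of these 4 lists was called by limma. An unadjusted p under 0.05 was found there for 3 NF-kB genes, 2 kinases, 3 inducible genes and 2 genes of the Toll branch. Under each of the other scalings 1 inducible gene, Irf1, was called lower, and in the Toll branch 1 gene was higher by median ratio and 2 by quantile normalization. By diet in KO mice, 5 of 12 NF-kB genes, 2 of 4 kinases, 9 of 16 inducible genes and 4 of 10 Toll and interleukin 1 genes were higher, and 1 inducible gene and 1 of the Toll branch were lower. By median ratio, quantile normalization and sample median the NF-kB list then had 2, 2 and 1 higher and 4, 6 and 9 lower, the kinases 1, 0 and 0 higher and 1, 2 and 3 lower, the inducible genes 6, 5 and 4 higher and 1, 1 and 5 lower, and the Toll branch 2, 1 and 1 higher and 3, 5 and 6 lower. By diet in WT mice, 2 inducible genes were higher and 1 was lower.

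Markers of cell types were read beside the shares of all tested genes. These were 32.2% higher and 3.31% lower in KO than in WT mice on the Western diet. No T cell or neutrophil marker was called between diets in either genotype. By diet in KO mice, 10 of 12 macrophage and monocyte markers were higher and 2 lower, beside 37.3% of all tested genes higher. All 4 dendritic cell and all 4 endothelial markers tested were higher. So were 2 of 4 NK cell, 2 of 7 B cell and 1 of 2 stellate cell and fibroblast markers. By diet in WT mice 1 macrophage and monocyte marker and 2 endothelial markers were higher, and 1 hepatocyte marker was lower. Of 12 measured markers of macrophages and monocytes, 10 were higher and 1 was lower in KO than in WT mice fed the Western diet, and their summed level was 6737 to 7440 normalized counts in KO and 2746 to 5094 in WT mice, against 3361 to 3991 in KO and 3008 to 3317 in WT mice on the control diet. The 4 tested dendritic cell markers had 3 higher, the 7 tested B cell markers 3, the 4 tested neutrophil markers 2, the 4 endothelial markers 2, the 4 tested NK cell markers 1 and the 11 tested T cell markers 1, with none lower. The neutrophil sum was 802 to 851 in KO and 219 to 385 in WT mice on the Western diet, against 301 to 959 in KO and 166 to 206 in WT mice on the control diet. Of 11 hepatocyte markers, 2 were lower in KO than in WT mice on the Western diet and 7 were lower on the Western than on the control diet in KO mice. In that diet comparison 36 of all 453 tested genes were lower. On the control diet 2 neutrophil markers, S100a8 and S100a9, and 1 T cell marker were higher in KO than in WT mice, as were 1.99% of all tested genes. The median neutrophil difference was 1.24. Those 2 neutrophil markers were called under all 4 scalings. They were also the 2 called on the Western diet, where Csf3r was at 0.69 (limma adjusted p = 0.0643) and Camp at -0.11 (adjusted p = 0.792). On the Western diet the macrophage and monocyte markers had 9, 6 and 4 higher and 1 lower by median ratio, quantile normalization and sample median, the neutrophil markers 2 higher under each, and the dendritic cell markers 2, 1 and 1. The B cell marker Blnk and the NK cell marker Klrd1 stayed called by median ratio only. The B cell markers Btk and Cd22, the T cell marker Cd5 and endothelial Cdh5 were called under no other scaling. Endothelial Vcam1 stayed called by median ratio and quantile normalization, and Pecam1 was called lower by sample median (-0.34). Hepatocyte markers were lower in 3, 1 and 8 cases. No marker was at 0 in any library, and no cholangiocyte marker was on the panel. The part of these cells in the differences of the TNF family was not tested.

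The authors' deposited table is headed SK2 vs WT, a heading that names no diet. It was taken as the Western-diet comparison, and its fold changes other than 0 lay near the Western-diet differences here. It gave 3 members an adjusted p under 0.05. In the authors' deposited table these were Tnfrsf1b (log2 fold change 0.83, adjusted p = 0.0165), Tnfrsf14 (0.42, 0.0131) and Ltbr (-0.28, 0.0471). Litaf stood at 0.39 (0.0973) and Tnfaip3 at 0.74 (0.178) in the authors' deposited table, which lists 20 members at a fold change of 0. Among these are Ltb, Cd40 and Tnf, which differed by 0.49, 0.46 and 0.64 here. Ltb had the highest mean of the 20, at 44.9 normalized counts, while every member with another value averaged at least 81.3. The sources used here do not say whether a 0 stands for an estimate or for none.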

How the data were processed

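RNA of 12 mice was extracted by the Trizol method and bound to barcoded probes, per the labels' protocols. What the authors deposited are log2 normalized counts, per the file headers. In every library the antilogs were whole multiples of a single factor (100% of values, tolerance 0.001). The factors ran from 0.772 to 1.28, and the sources used here do not say how they were set. The authors' deposited table of 1 comparison holds log2 fold changes, p-values and adjusted p-values, with the test unstated.

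Antilogs were taken, 1 was added and the sum was put on the log2 scale, which understates changes of low genes. Genes averaging at least 20 normalized counts were fitted with limma 3.58.1 (R 4.3.3) on all 12 libraries, with a mean per group and a variance trend. Tests were two-sided, with Benjamini-Hochberg adjustment per comparison at 0.05. An exact permutation test of 3 against 3 mice cannot go below p = 0.1 and was not used. The fit was tested on simulated data. Python 3.11.15 handled tables, the promoter search and figures.

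Members given per mouse by rule were those called in a comparison and Tnf, Tnfrsf1b, Fas, Ltbr, Cd40 and Traf2. Also given per mouse, outside that rule, were Cradd, Tnfrsf11a, Tnfaip6, Tnfsf8 and Tnfsf15. Of each pathway list, up to 4 genes with the smallest p on the Western diet were named, and the list of death and survival genes is not reported here. Members and lists were chosen with earlier results of these data known. Groups came from the sample labels, and replicate numbers only name mice. Alternatives concerned the pseudocount, the filter, scaling, the variance model, age, sample numbers, the source of values and single libraries.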

Additional observations from a re-analysis of the deposited data

Results flagged for a closer look

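For 2 members the diet difference had opposite signs in KO and WT mice with no overlap between diets in either genotype. How many of all tested genes share this pattern was not counted. Of all tested genes, 57.6% did not overlap between diets in KO mice and 28% in WT mice. Ltbr was lower on the Western than on the control diet in all 3 KO mice and higher in all 3 WT mice, with an interaction of -0.51 (log2, limma adjusted p = 0.0414). Fas showed the same arrangement with an interaction of -0.55, which did not pass (adjusted p = 0.0603). Both groups of control-diet mice enter each interaction. Groups of 3 mice were too small for a check of single outlying values.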

How the results depend on the processing

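Of 361 recalculations of the 13 called differences, 247 kept the call. Over the members recalculated singly, called or not, 1493 of 1653 stayed on the same side of the threshold. These include differences that changed sign without being called before or after. A further 104 lost a call and 39 gained one with the sign kept, and 17 changed sign where called before or after. Counts of called members were 4 (KO against WT, Western diet), 1 (control diet), 5 (diet, KO), 2 (diet, WT) and 1 (interaction). In that order they were 11, 0, 18, 2 and 4 recentred on the sample median, 9, 1, 10, 2 and 2 after quantile normalization, and 4, 1, 6, 1 and 2 with median-ratio recentring. For KO against WT on the Western diet and for diet in KO mice, lower members made up 11 of 11 and 18 of 18, 9 of 9 and 10 of 10, and 3 of 4 and 5 of 6, against 1 of 4 and 0 of 5 under the authors' scaling. No member was called by limma in any of the 5 from the series-wide table, which pairs values and animals differently. For that table and the alternatives that follow, counts over all genes are not given, so these member counts have no share beside them. With age as a covariate they were 4, 0, 1, 0 and 0, without a variance trend 4, 0, 6, 0 and 0, with an equal-variance test 4, 0, 5, 1 and 1, and without a filter 4, 0, 5, 2 and 0. With a mean of at least 50 the interaction had 2, with a pseudocount of 10 the control diet had 0, and with only the 6 libraries compared the control diet had 0 and the WT diet comparison 1. Of the alternatives added after seeing the data, voom on recovered counts gave 5, 1, 7, 1 and 1, the block of sample numbers 4, 0, 4, 1 and 0, and leaving out both libraries that stood apart gave 4, 0, 8, 6 and 0. Leaving out 1 library at a time gave 1 to 8, 0 to 3, 3 to 7, 0 to 4 and 0 to 2. The lowest and highest Western-diet genotype counts came without KO Western-diet replicate 2 (1) and without WT Western-diet replicate 1 (8). The cause of these shifts was not tested. At an unadjusted p under 0.05 the counts were 8, 7, 11, 8 and 4.

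Over all 30 tested members, 9 signs turned with median-ratio recentring, 13 with quantile normalization and 17 with sample-median recentring between KO and WT on the Western diet, and 9, 12 and 18 between diets in KO mice, all to lower. Among the members given per mouse by rule, some signs turned where the difference was called before or after. Between KO and WT on the Western diet these were Litaf (-0.19), Tnfrsf14 (-0.19) and Tnfsf10 (-0.55) recentred on the sample median. Tnfrsf14 (-0.12) and Tnfsf10 (-0.54) turned there after quantile normalization, and Ltbr (0.12) in the series-wide table. On the control diet Litaf turned in the series-wide table (-0.15). By diet in KO mice Cd40 (-0.061), Litaf (-0.56), Tnfrsf14 (-0.68), Tnfsf10 (-0.11) and Traf2 (-0.54) turned with sample-median recentring, Tnfrsf14 (-0.46), Tnfsf10 (-0.061) and Traf2 (-0.48) with quantile normalization, and Tnfsf10 (-0.28) in the series-wide table. By diet in WT mice Tnfaip3 turned in the series-wide table (-0.43).

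Leaving out 1 library also made calls. Without WT Western-diet replicate 1, Tnfaip3 (1.0, adjusted p = 0.00542) and Ltb (0.64, adjusted p = 0.0388) passed by limma between KO and WT on the Western diet, and without KO Western-diet replicate 3, Cd40 (0.68, adjusted p = 0.0357). On the control diet Tnfrsf1b passed without KO control-diet replicate 1 (0.60, adjusted p = 0.0341) and Tnfaip3 without WT Western-diet replicate 2 (0.75, adjusted p = 0.0296). By diet in KO mice Tnfrsf1b passed without KO control-diet or KO Western-diet replicate 2 (0.60 and 0.57), and Ltbr without KO control-diet replicate 1 (-0.22). By diet in WT mice Tnfsf12 passed without WT Western-diet replicate 2 (0.94) or KO control-diet replicate 1 or 2 (0.77).

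No paired analysis was possible because the labels carry no replicate numbers, and the block of sample numbers pairs no single mice. Members averaging under 40 normalized counts, Tnf among them, are limited by counting depth.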
